A study of Rattus norvegicus with 6 samples.

Results

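Metallothioneins and the zinc transporters that work beside them were followed in rat liver after repeated dosing with tert-butyl alcohol, a tertiary alcohol and solvent abbreviated tBA. The set of 9 genes comprises the metallothioneins Mt1 and Mt2A, the metal-sensing transcription factor Mtf1, the exporters Slc30a1 and Slc30a10, and the importers Slc39a4, Slc39a5, Slc39a8 and Slc39a14. They were taken by symbol from the 15284 gene symbols that could be given to probes of the array; all 9 had at least 1 probe, 19 probes in all.

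Livers of 6 male Sprague-Dawley rats, an outbred stock bought at 5 weeks of age, were measured: 3 rats had received tBA at 1000 mg/kg/day and 3 had received vehicle, with no genetic change in either group. The labels disagree on the vehicle, which is purified water in the sample labels and corn oil in the treatment protocol, and on the length of dosing, which is 28 days in the series text and 9 weeks in that protocol. Total RNA was labelled with Cy3 and each rat had its own one-colour Agilent array. Each array had 61657 probes, of which 61.5% to 66.9% were well above background, and the number of arrays limits the precision. The 8 hepatocyte markers, among them albumin, were above background on all 6 arrays, with summed signals of 3891 to 4103 in the tBA group and 3859 to 4191 in the vehicle group (in units of the array's 75th percentile). Every vehicle array lay on slide 1, together with tBA replicate 1; the remaining tBA arrays, replicates 2 and 3, lay on slide 2. Slide and treatment can therefore be separated only through tBA replicate 1.

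Metallothioneins are small cysteine-rich proteins that bind zinc, copper and cadmium and buffer the free metal in hepatocytes. When zinc is plentiful, MTF1 binds short promoter sequences called metal response elements and drives the metallothionein genes and Slc30a1; glucocorticoids, interleukin-6 and oxidants also induce metallothioneins. SLC30 (ZnT) proteins move zinc or manganese out of the cytosol, and SLC39 (ZIP) proteins bring these metals in.

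The promoters of the 3 textbook MTF1 targets in the set are shown because these genes are read below as a group. Each is the 250 bases before the annotated start from RefSeq's GRCr8 assembly, 5′ to 3′ on the gene's own strand, with the core of the metal response element (TGCACNC or TGCGCNC, either strand) in capitals. Mt1 and Mt2A are neighbours on chromosome 19, at chr19:10832976-10833225 and chr19:10838709-10838958 (both minus strand), and the Slc30a1 window is chr13:106021769-106022018 (plus strand).
Mt1: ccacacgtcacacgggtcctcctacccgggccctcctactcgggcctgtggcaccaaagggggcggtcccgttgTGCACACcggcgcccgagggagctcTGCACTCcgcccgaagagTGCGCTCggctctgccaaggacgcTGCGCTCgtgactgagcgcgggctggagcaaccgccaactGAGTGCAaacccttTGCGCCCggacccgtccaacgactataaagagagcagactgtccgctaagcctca
Mt2A: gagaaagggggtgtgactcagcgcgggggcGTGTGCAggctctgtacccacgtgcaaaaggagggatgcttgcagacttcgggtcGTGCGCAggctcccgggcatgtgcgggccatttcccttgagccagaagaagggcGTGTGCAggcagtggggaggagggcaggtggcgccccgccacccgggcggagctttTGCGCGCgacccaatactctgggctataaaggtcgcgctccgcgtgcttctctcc
Slc30a1: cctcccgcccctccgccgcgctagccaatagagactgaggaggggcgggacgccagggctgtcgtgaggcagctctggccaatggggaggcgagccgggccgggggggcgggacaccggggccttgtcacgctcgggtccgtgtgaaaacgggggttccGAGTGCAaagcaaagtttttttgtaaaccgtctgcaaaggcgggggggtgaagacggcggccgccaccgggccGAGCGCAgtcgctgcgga

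The Mt1 window holds 6 cores, and that of Mt2A holds 4. In 300-base windows (250 bases before to 50 after the start) of all 33469 promoters in the table, 24.2% had at least 1 core, 0.439% at least 4 and 0.0388% at least 6. Slc30a1 and Mtf1 had 2 each, a number reached by 6.36% of promoters, and Slc39a5 and Slc39a8 had 0; promoters of 6 of the 9 genes were in the table. The core of the antioxidant response element, TGACNNNGC on either strand, was found in 12.1% of promoters and in the windows of these 6 genes, once in Mt1, Mt2A, Slc30a1 and Slc39a8 and at 2 places in Mtf1 and Slc39a5. These matches describe letters and do not show that a factor binds.

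Treated and vehicle livers were compared to find transcripts that differ after dosing, and the 9 genes were read within that comparison. The measure was the log2 of each probe's background-subtracted signal minus the array's 75th percentile, and a gene was read from its brightest tested probe, the probe with the highest mean over the 6 arrays. None of the 9 genes passed the test. With limma and Benjamini-Hochberg adjustment across 37647 probes, 0 of the 9 genes and 0 of their 17 tested probes reached an adjusted p under 0.05, where 0.0451% of all 11094 tested genes and 0.114% of all probes passed. At an unadjusted p under 0.05 there was 1 of the 9, Slc39a5, higher with tBA, against 15.1% of all genes (7.64% higher and 7.45% lower). The tBA and vehicle values did not overlap in the same 1 of 9 genes, against 24.2% of all genes (12.8% with tBA above). Of the 9 differences, 7 were above 0 and 2 below, with a median of 0.064 against 0.0032 over all tested genes.

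**Figure D1:**
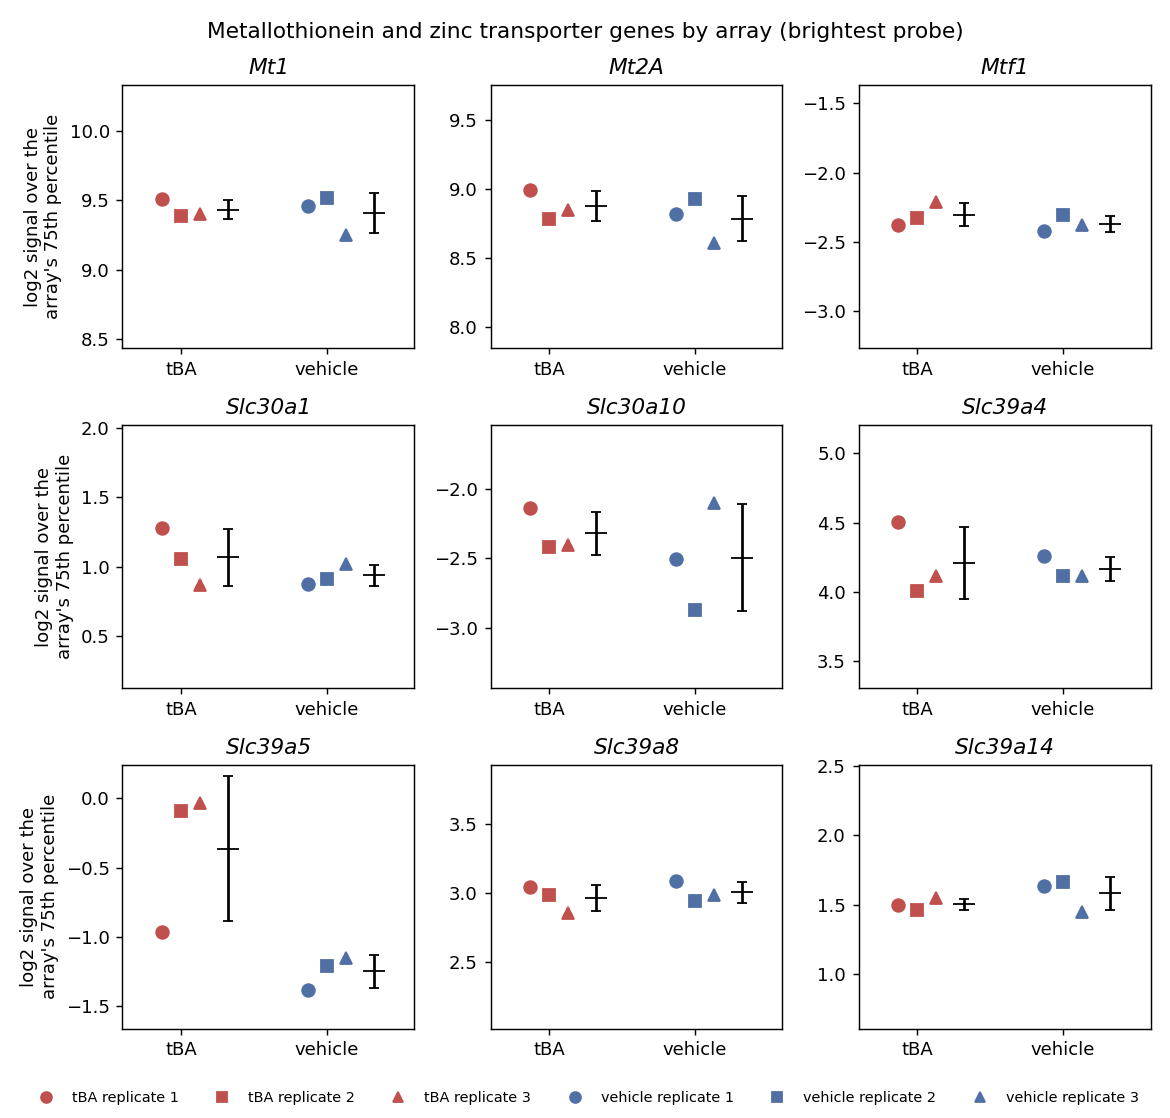
Log2 signal of each gene's brightest probe, relative to the array's 75th percentile, on the 3 tBA arrays and the 3 vehicle arrays; symbols mark the replicate, the black dash and bars are mean and SD, and every panel spans the same height of log2 units. The groups overlap in 8 panels, and in that of Slc39a5 the tBA arrays at -0.97, -0.09 and -0.04 lie above the vehicle arrays.

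The Mt1 groups differed by less than the spread between rats. Its brightest probe read 9.51, 9.39 and 9.40 log2 units on tBA replicates 1 to 3, against 9.46, 9.52 and 9.25 on vehicle replicates 1 to 3. All 3 tBA values lay inside the vehicle range. The difference was 0.025 (SE 0.105, adjusted p = 0.924 by limma), and its 95% interval, -0.23 to 0.28, corresponds to 0.852-fold to 1.21-fold.

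Mt2A, whose gene lies next to Mt1 and is co-induced with it by metals, gave a similarly small difference. The brightest probe read 8.99, 8.78 and 8.85 log2 units on the tBA arrays, against 8.82, 8.93 and 8.61 on the vehicle arrays. Only tBA replicate 1 lay outside the vehicle range, above it. The difference was 0.09 (SE 0.12, adjusted p = 0.722 by limma), with a 95% interval of 0.873-fold to 1.30-fold.

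The 5 metallothionein probes moved together from rat to rat, in an order that crossed the groups. In all 5, after scaling, vehicle replicate 3 was the lowest of the 6 arrays and vehicle replicate 2 the highest of the vehicle arrays. Before scaling, the Mt2A probes were still lowest on vehicle replicate 3. Both Mt1 probes were then lowest on tBA replicate 2, at 321100 and 381000 against 338800 and 388400 on vehicle replicate 3. Within the tBA group, replicate 1 was the highest and replicate 2 the lowest in all 5. Pearson's r between pairs of these probes over the 6 arrays ran from 0.854 to 0.972; the pairs share arrays and scaling, and Mt1 and Mt2A are similar in coding sequence, so cross-hybridisation between them may enter and was not tested. The vehicle arrays spread more widely than the tBA arrays in each of the 5 probes. The second Mt1 probe, for example, spanned 0.284 log2 units over the tBA arrays and 0.515 over the vehicle arrays; whether the groups differ in spread was not tested.

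The brightest probe of each metallothionein gene showed the narrowest range over the 6 arrays. For Mt1 this range was 0.272 log2 units against 0.515 for its other probe, and for Mt2A it was 0.387 against 0.608 and 0.645 for its 2 others. The raw median signals of the Mt1 probes were 36.0% to 53.2% of the scanner's limit and those of Mt2A 17.1% to 42.1%, and no spot of the arrays was marked as saturated. The differences of the dimmer probes were -0.05 for Mt1 (95% interval -0.43 to 0.33) and 0.11 and 0.04 for Mt2A (-0.30 to 0.52 and -0.40 to 0.47). These intervals are wider than those of the brightest probes, and the part of signal compression at the bright end was not tested.

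**Figure D2:**
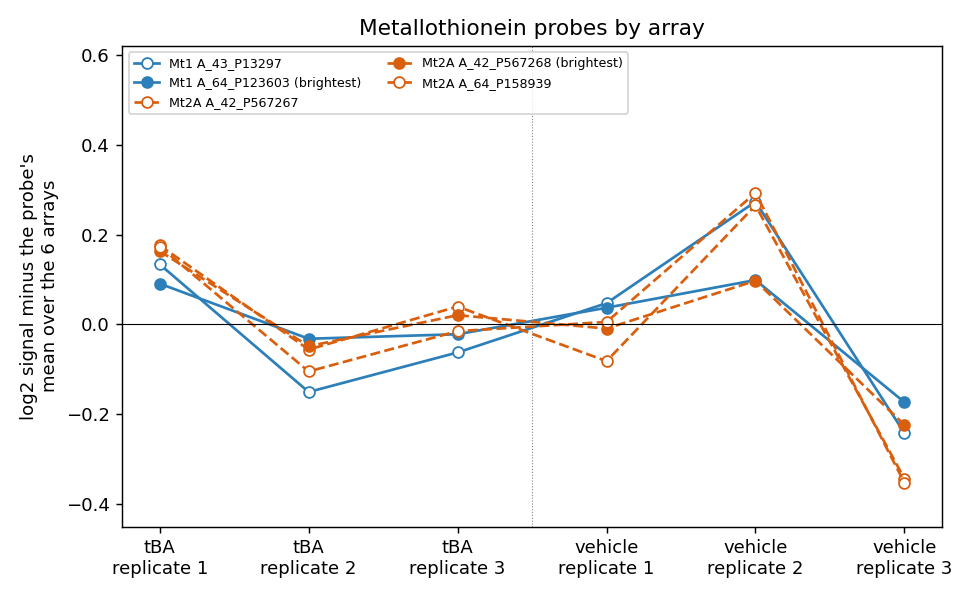
Log2 signal of the 5 metallothionein probes on each array, as the deviation from the probe's mean over the 6 arrays; solid lines are the 2 Mt1 probes, dashed lines the 3 Mt2A probes, and filled points the brightest probe of each gene. Signals are relative to the array's 75th percentile. All lines are lowest at vehicle replicate 3, and 4 of the 5 are highest at vehicle replicate 2.

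Genes whose pattern over the 6 arrays was most like that of Mt1 or Mt2A were named as a description. Among 10673 other genes above background on all 6 arrays, the closest to Mt1 were Mme (r = 0.995), Clu (0.987), Glrx5 (0.980), Fnbp1 (0.978) and Vwa7 (0.975), and 65 genes reached 0.9. The closest to Mt2A were Oas1k (0.998), Tnni2 (0.986), H6pd (0.982), Vwa7 (0.980) and Oas1a (0.979), and 58 genes reached 0.9. These values share arrays and scaling and carry no test.

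Mtf1, which encodes the zinc-finger factor that senses free zinc, was read by 1 probe. Its values were -2.38, -2.33 and -2.21 log2 units on the tBA arrays, against -2.42, -2.31 and -2.38 on the vehicle arrays. The groups overlapped, and the difference was 0.064 (SE 0.089, adjusted p = 0.740 by limma) with a 95% interval of 0.900-fold to 1.21-fold. The transcript level of Mtf1 does not measure the factor's binding, which depends on zinc.

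Slc30a1 (ZnT1), the zinc exporter of the plasma membrane and itself an MTF1 target, was the other reporter of metal sensing. Its probe read 1.28, 1.06 and 0.86 log2 units on the tBA arrays, against 0.88, 0.91 and 1.02 on the vehicle arrays. The tBA arrays held both the highest and the lowest of the 6 values. The difference was 0.13 (SE 0.13, adjusted p = 0.628 by limma), with a 95% interval of 0.884-fold to 1.35-fold. With slide as a fixed block, the differences were 0.34 (SE 0.14) for Slc30a1, 0.21 (SE 0.16) for Mt2A and 0.10 (SE 0.15) for Mt1. The adjusted p in limma was 0.647, 0.761 and 0.862. These differences rest on tBA replicate 1, the only tBA array on the slide of the vehicle arrays.

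Slc30a10, which in liver exports manganese into bile, was the gene with the widest interval of the exporters. It read -2.14, -2.42 and -2.40 log2 units on the tBA arrays, against -2.51, -2.87 and -2.10 on the vehicle arrays. The vehicle arrays held both extremes, 0.770 log2 units apart. The difference was 0.17 (SE 0.21, adjusted p = 0.692 by limma; 95% interval 0.798-fold to 1.60-fold). Without vehicle replicate 2, the lowest array, it was -0.01, and with slide as a fixed block it was 0.36 (SE 0.30).

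The importers include the 1 gene of the 9 whose groups did not overlap, against 24.2% of all genes. Slc39a5 (ZIP5), a zinc importer best known on the basolateral side of intestinal and pancreatic acinar cells and also present in liver, read -0.97, -0.09 and -0.04 log2 units on tBA replicates 1 to 3. The vehicle arrays read -1.38, -1.21 and -1.15. All 3 tBA values lay above all vehicle values, with replicates 2 and 3 far above and replicate 1 close to the vehicle range. The means were -0.36 ± 0.52 in the tBA group and -1.25 ± 0.12 in the vehicle group (SD, n = 3 each). The difference of 0.88 (SE 0.26) is 1.85-fold, with a 95% interval of 1.20-fold to 2.85-fold, an unadjusted limma p of 0.0133 and an adjusted p of 0.244. An exact two-sided permutation test gave p = 0.1, the smallest that 3 arrays against 3 allow. In whole liver, more cells of a type and more RNA per cell cannot be told apart.

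The slide moved with the Slc39a5 values. The tBA array on slide 1 was 0.28 above the vehicle mean, and the tBA arrays on slide 2 were 1.19 above it. Within slide 1, and with slide as a fixed block, the difference was 0.28, with adjusted p of 0.689 and 0.674 in limma. Without tBA replicate 1 the difference was 1.19 (adjusted p = 0.0667 by limma). Among all tested genes, 12.8% had both slide 2 arrays above every slide 1 array, as Slc39a5 did. Whether slide or the rats of that slide set the Slc39a5 values cannot be told apart.

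**Figure D3:**
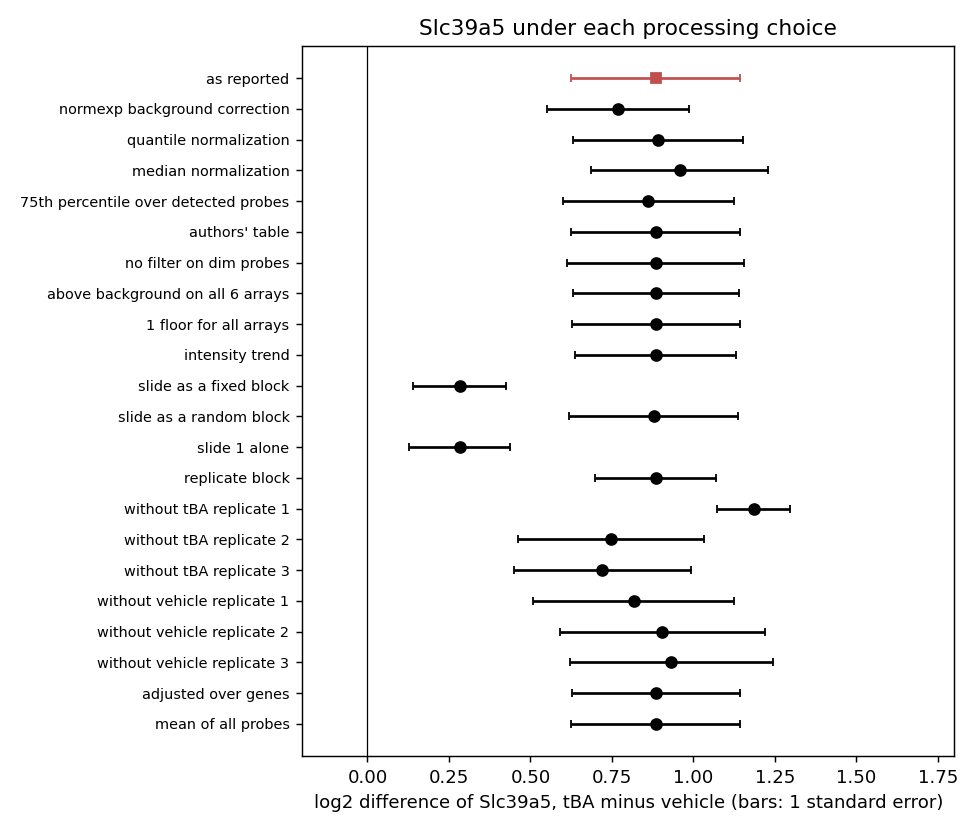
Log2 difference of Slc39a5, tBA minus vehicle, as reported (square) and under each other way of processing (circles), with bars of 1 standard error. The values within slide 1 and with slide as a fixed block, 0.28, are the lowest and that without tBA replicate 1, 1.19, is the highest.

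No second probe could be set beside these values, since 1 of the 3 Slc39a5 probes was well above background on 0 of the 6 arrays and another on 1 tBA and 1 vehicle array. Markers of organs in which Slc39a5 is well known were read beside it. Of the 8 pancreatic acinar markers, Prss1, Cela1 and Pnlip were at background throughout, and 4 were well above it on all 6 arrays. Summed over all 8 markers, those at background included, the signal was 1.15, 0.972 and 2.22 on tBA replicates 1 to 3, against 0.989, 1.06 and 1.17 on the vehicle arrays (in units of the array's 75th percentile). The high value of tBA replicate 3 came with Cpb1, a pancreatic carboxypeptidase, which read -1.09, -2.00 and 0.58 log2 units on tBA replicates 1 to 3, against -1.42, -1.30 and -1.09 on the vehicle arrays. Of the 8 intestinal marker symbols listed, 5 had a named probe and 3 of these were above background on all arrays. Sis and Si were both listed, and neither had a named probe. The sum over the 5 was 1.57 to 2.16 in the tBA group and 1.67 to 3.64 in the vehicle group. The part of pancreatic or intestinal cells in the Slc39a5 values was not tested.

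Slc39a4 (ZIP4), the zinc importer whose loss causes the human zinc deficiency acrodermatitis enteropathica, had a wide tBA group. Its probe read 4.502, 4.005 and 4.114 log2 units on tBA replicates 1 to 3, against 4.261, 4.118 and 4.111 on the vehicle arrays. The tBA arrays held both extremes. The difference was 0.044 (SE 0.148, adjusted p = 0.903 by limma; 95% interval 0.804-fold to 1.32-fold), and within slide 1, which holds the high tBA replicate 1, it was 0.34.

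Slc39a8 (ZIP8), an importer of zinc, manganese and cadmium, had 3 tested probes and each was slightly lower with tBA. The brightest read 3.04, 2.98 and 2.86 log2 units on the tBA arrays, against 3.08, 2.94 and 2.98 on the vehicle arrays. The groups overlapped in each of the 3 probes. The brightest gave -0.04 (SE 0.09, adjusted p = 0.847 by limma; 95% interval 0.830-fold to 1.14-fold), and the others gave -0.19 and -0.10.

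Slc39a14 (ZIP14), the hepatic importer of manganese, zinc and iron that interleukin-6 induces, had 4 tested probes that did not share a sign. The brightest read 1.50, 1.46 and 1.54 log2 units on the tBA arrays, against 1.63, 1.67 and 1.45 on the vehicle arrays. The difference was -0.08 (SE 0.10, adjusted p = 0.691 by limma; 95% interval 0.805-fold to 1.11-fold). The next brightest gave -0.08 and another 0.0076, while probe A_44_P375185 gave 0.30 (SE 0.17, adjusted p = 0.431 by limma). That probe read 0.59, 1.06 and 0.48 log2 units on the tBA arrays, against 0.29, 0.37 and 0.57 on the vehicle arrays, so its groups overlapped as well. Alternative transcripts of Slc39a14 are known in mammals, and the part of the transcript each probe reads was not analysed here.

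**Figure D4:**
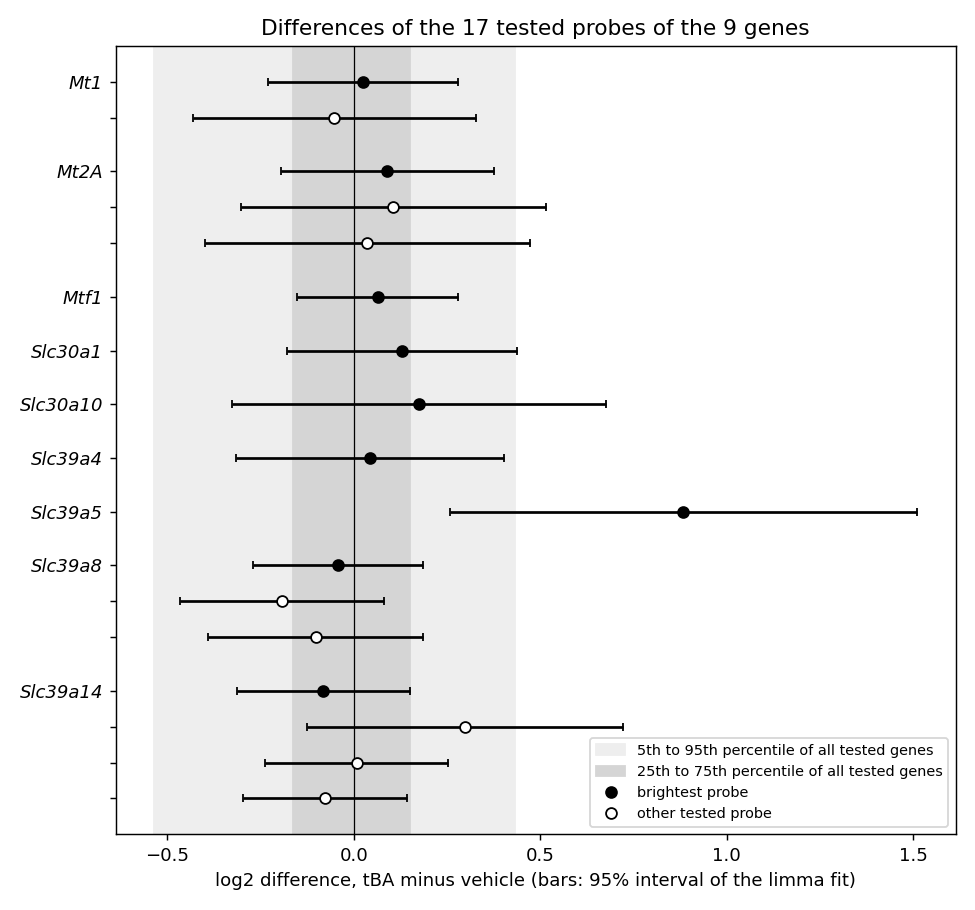
Log2 difference, tBA minus vehicle, of the 17 tested probes with 95% intervals; filled points are the brightest probe of each gene. Shaded bands span the 5th to 95th (-0.54 to 0.43) and the 25th to 75th percentile (-0.16 to 0.15) of the differences of all tested genes: 7 of the 9 brightest probes lie in the inner band, Slc30a10 in the outer band and Slc39a5, at 0.88, beyond it.

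The spread between rats of a group differed among the 9 genes. The pooled within-group SD was 0.072 log2 units for Mtf1, 0.084 for Slc39a8 and 0.090 for Slc39a14, smaller than in at least 80% of all tested genes. It was 0.29 for Slc30a10 and 0.38 for Slc39a5, larger than in 79.6% and 87.5% of genes. The median over all tested genes was 0.16.

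The wider pathway was read from 7 lists of 84 tested genes, chosen with earlier results of these data known. None of the 84 passed the adjusted threshold in limma, 14 had an unadjusted p under 0.05 (6 higher and 8 lower, 16.7% against 15.1% of all genes), and the groups did not overlap in 21, or 25.0% against 24.2%. The other metallothioneins Mt3 and Mt4, known from brain and squamous epithelium, had probes that did not pass the filter on dim signals, and Mt1m was not named on the array.

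Of the other ZnT family genes and the zinc-binding membrane protein Tmem163, 7 were tested, with 0 higher and 1 lower at an unadjusted p under 0.05 and a median difference of -0.22. Those with the smallest p were Tmem163 at -0.63 (SE 0.24), Slc30a7 at -0.27 (SE 0.12) and Slc30a4 at -0.22 (SE 0.11), with adjusted p of 0.298 to 0.369 by limma. SLC30A7 loads zinc into the Golgi, and SLC30A4 into endosomal vesicles. Of the other ZIP importers 7 were tested, 1 higher and 0 lower at that level, with a median of -0.04. Slc39a12 was at 0.82 (SE 0.32), Slc39a7, which releases zinc from the endoplasmic reticulum, at -0.16 (SE 0.08) and Slc39a6 at -0.16 (SE 0.09), with adjusted p of 0.305 to 0.401 by limma. These 3 ZIP genes were named for the smallest p of their list. They were also the 3 of the 7 whose groups did not overlap. Of all genes, 24.2% did not overlap and 15.1% had an unadjusted limma p under 0.05. So few genes cannot be set apart from these shares. The Slc39a12 probe was dim, with signals of 28.73, 60.85 and 32.02 on the tBA arrays and 22.09, 19.23 and 30.16 on the vehicle arrays. The lowest signal well above background was 11.9 to 17.4, depending on the array.

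Genes of copper handling, which shares metallothionein as a store, had 14 tested, 1 higher and 1 lower at an unadjusted p under 0.05, with a median of 0.087. Atp7b, the ATPase that sends hepatic copper to ceruloplasmin and bile, had the smallest p of the 7 lists. It read 0.39, -0.15 and 0.28 log2 units on the tBA arrays, against 0.89, 0.98 and 0.97 on the vehicle arrays. The groups did not overlap and its 3 probes shared the sign, at -0.78 for the brightest (SE 0.15, adjusted p = 0.176 by limma). Cox17, a copper chaperone of cytochrome oxidase, was at 0.23 (SE 0.08) and Slc31a1, the copper importer CTR1, at 0.23 (SE 0.13). Among 8 carriers of manganese, iron and cadmium, 1 was higher and 0 lower at that level and the median was -0.02; the transferrin receptor Tfrc was at 0.59 (SE 0.13, adjusted p = 0.193 by limma), Slc22a17 at -0.17 and the divalent metal importer Slc11a2 at -0.11.

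Zinc enzymes and zinc-binding proteins of liver gave 17 tested genes, 2 higher and 1 lower at an unadjusted p under 0.05, with a median of 0.088. The zinc-dependent alkaline phosphatase Alpl read -0.34, -0.56 and -0.48 log2 units on the tBA arrays, against -1.34, -1.11 and -1.90 on the vehicle arrays, a difference of 0.99 (SE 0.21, adjusted p = 0.186 by limma). Car3, a zinc carbonic anhydrase that is higher in male rat liver, read 2.88, 0.81 and 2.45 on the tBA arrays, against 4.24, 4.71 and 4.29 on the vehicle arrays. Its difference was -2.37 (SE 0.53, adjusted p = 0.193 by limma). Hrg, a plasma protein that binds zinc, was at 0.23 (SE 0.09). These 3 genes were named for the smallest p of the list, and their groups did not overlap. In the whole list the groups did not overlap in 5 of the 17, against 24.2% of all genes.

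Of the other inducers of metallothionein, glucocorticoids and interleukin-6 were read through lists of genes, and oxidants were not. For glucocorticoids, 15 genes of the receptor, its plasma carrier and induced targets were tested, 0 higher and 4 lower at an unadjusted p under 0.05, against 7.64% higher and 7.45% lower among all genes. The median was 0.085, since 10 of the 15 differences were above 0. Those with the smallest p were the carrier Serpina6 at -0.66 (SE 0.13), the induced kinase Sgk1 at -0.89 (SE 0.19) and the receptor Nr3c1 at -0.32 (SE 0.08). Their adjusted p was 0.180 to 0.204 by limma and their groups did not overlap. In the whole list the groups did not overlap in 4 of the 15, against 24.2% of all genes. The induced targets did not share a sign. Dusp1 was at -1.57 (SE 0.41), while Fkbp5 was at 0.80 (SE 0.48) and Tsc22d3 at 0.53 (SE 0.38). In Fkbp5 and Tsc22d3 the groups overlapped. Of the 15 differences, 5 were below 0. The receptor's brightest probe read 1.58, 1.57 and 1.57 log2 units on the tBA arrays, against 1.87, 1.90 and 1.90 on the vehicle arrays. For interleukin-6, 16 genes of its receptor, STAT3 pathway and acute phase targets were tested, 1 higher and 1 lower at that level, with a median of -0.02. Crp was at -0.42 (SE 0.14), the lipopolysaccharide-binding protein Lbp at 0.47 (SE 0.17) and the feedback inhibitor Socs3 at -0.27 (SE 0.12), with adjusted p of 0.263 to 0.327 by limma.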

How the data were processed

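Liver RNA of 6 rats, 3 given tBA and 3 given vehicle per the labels, was read on Agilent one-colour arrays. The deposited intensity values come from Agilent's scanner software (Feature Extraction, version 10.7.1.1 per the file headers and 10.7 in the submitters' processing notes), which subtracts background from each spot; the array annotation uses rn4. The deposited series table is a linear ratio: the processed signal over 1 divisor per array of 570.0 to 639.5, near its 75th percentile, with column medians of 0.0950 to 0.102, hence without centring per gene; higher values mean more signal. It served as an alternative.

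Probes were named by accession through RefSeq's GRCr8 gene table: 27460 of 61657 probes got a symbol. No spot was saturated; 3 to 16 outlier spots per array were treated as missing. Log2 signals, less the 75th percentile of their array, were fitted with limma 3.58.1 (lmFit, eBayes) in R 4.3.3 to the 37647 probes that every array of 1 group or of both read well above background, with Benjamini-Hochberg adjustment over them. No test compared the levels of different probes. Levels were ranked within a gene to choose its brightest probe, and added up in the marker sums.

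The members and lists were chosen with earlier results of these data known. Named genes are the 9 members, up to 3 genes of each other list by smallest p and the 5 genes most like Mt1 and Mt2A. Dusp1, Fkbp5 and Tsc22d3 of the glucocorticoid list were named besides. A list entry absent as a symbol was matched by synonym. No label states that the replicate numbers pair the rats, so they were not taken as pairs. Same-numbered tBA and vehicle arrays did not deviate together (r = -0.06, -0.06 and 0.01 over probes). With 3 arrays per group, this cannot show that no pairing exists. Scripts were tested on simulated data. Figures used Python 3.11.15 and matplotlib 3.10.9.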

Additional observations from a re-analysis of the deposited data

How the results depend on the processing

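The count of 0 of 9 genes past the threshold held in limma under all 21 alternatives; at an unadjusted p under 0.05, Slc39a5 stood in 19 of them, Slc39a4 in 1 and the other genes in 0. These alternatives were normexp background correction, 3 other normalizations, the authors' table, 2 other filters, 1 floor for all arrays, an intensity trend, a block for slide (fixed, random, or slide 1 by itself), a replicate block, each array left out, adjustment over genes and the mean of a gene's probes. The Slc39a5 difference stayed above 0, from 0.28 to 1.19, and Mt2A (0.0010 to 0.21) and Slc30a1 (0.02 to 0.34) also kept their sign. For Mt2A this did not extend to its dimmer probes, which were at -0.0034 and -0.0535 under quantile normalization. Small differences turned sign. Mt1 was at -0.0002 under quantile normalization, -0.014 averaged over its probes, and -0.056 to 0.080 with an array left out (below 0 without tBA replicate 1, at -0.0145, and without vehicle replicate 3). Mtf1 was at -0.0066 with slide as a fixed block and within slide 1. Slc30a10 was at -0.0145 to 0.37 with an array left out (below 0 without vehicle replicate 2). Slc39a4 was at -0.038 with normexp, -0.012 under quantile normalization and -0.10 to 0.145 with an array left out (below 0 without tBA replicate 1). Slc39a8 was at 0.031 with median normalization, 0.039 with slide as a fixed block and within slide 1, and -0.082 to 0.0097 with an array left out (above 0 without tBA replicate 3), and Slc39a14 was at 0.037 averaged over its probes. Over all probes, the 43 that passed became 18 with no filter, 0 when each probe had to be above background on all 6 (5637 at an unadjusted p under 0.05), 65 with 1 floor, 68 with the intensity trend, 20 with slide as a fixed block, 0 within slide 1 (2956 at an unadjusted p under 0.05), 6 with the replicate block, and 6 (without tBA replicate 2) to 45 with an array left out. With the replicate block, whose numbers no label describes as pairs, Slc39a5 was at 0.88 (adjusted p = 0.310 by limma) and 0 of 9 genes passed. The causes of these changes were not tested.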

Other observations

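Marker lists of the other cells a liver sample can hold were read on the same arrays, as sums over the markers in units of the array's 75th percentile, with no test of the sums. Endothelial markers summed to 50.9 to 53.3 in the tBA group and 43.2 to 48.8 in the vehicle group. Most of that sum was Kdr. Of the 5 tested endothelial markers the groups did not overlap in 2 (Kdr and Tek), against 24.2% of all genes (12.8% with tBA above). So few markers cannot be set apart from that share. Pecam1, Cdh5 and Lyve1 overlapped and Cdh5 was at -0.04. Skeletal muscle markers summed to 0.998 to 1.50 in tBA livers and 0.865 to 0.990 in vehicle livers. Mb made up the main part. Of the 5 tested muscle markers the groups did not overlap in 1 (Acta1), against the same 24.2% of all genes. Ckm (-0.08) and Myh2 (-0.70) were below 0. Acta1 was well above background on 3 tBA arrays and 1 vehicle array, so it was tested only through the tBA group. Myh2 and Actn3, above background on 2 tBA and 3 vehicle arrays, were tested only through the vehicle group. Their values cannot be read apart from that filter. The sums of neutrophil (2.28 to 2.45 in tBA livers, 1.37 to 2.35 in vehicle livers), Kupffer cell (91.1 to 96.1 in tBA, 90.4 to 110.7 in vehicle), stellate cell (17.1 to 23.4 in tBA, 21.5 to 25.7 in vehicle), and T and B cell markers (2.33 to 3.08 in tBA, 2.79 to 4.19 in vehicle) overlapped. So did those of cholangiocyte, red blood cell and adipocyte markers. Vehicle replicate 3 was the array lowest in all 5 metallothionein probes after scaling. It was also the lowest of the 6 in the hepatocyte, neutrophil, Kupffer cell, endothelial and red blood cell sums. These sums are divided by the array's 75th percentile, which was largest on this array, at 638.9 against 568.3 to 630.5 on the others. The same array was the highest of the 6 in the stellate cell sum. It was not the lowest in the pancreatic acinar, intestinal, cholangiocyte, T and B cell, skeletal muscle and adipocyte sums. The part of any of these cells, or of the scaling, in the metallothionein values was not tested.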
